A study of Homo sapiens with 10 samples.

Results

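Genes for enzymes that supply pyrimidine nucleotides and deoxynucleotides were followed after knockdown of the serine/threonine kinase STK38 in the cell line ST486, which comes from a human Burkitt's lymphoma. The 10 genes are CAD, UMPS, CTPS1, RRM1, RRM2, DUT, DTYMK, TK1, DCK and NME1. Every probe set that the platform annotation assigns to only one of these genes was taken, which gave 14 of the 12625 probe sets on the array. CAD and TK1 had 2 probe sets each, NME1 had 3 and the others had 1. Cells carried a lentiviral short hairpin RNA (shRNA) against STK38 or a non-target control shRNA, and total RNA was taken 60 h after transduction. Each of these groups held 5 Affymetrix U95Av2 arrays, 10 in all. Both groups are transduced cells of 1 line, and the labels name 1 hairpin against STK38, so what the loss of STK38 does and what this hairpin does to unrelated transcripts cannot be told apart. Separate cultures are not stated for the replicates, and the p-values therefore cover the spread between arrays alone, part or all of which may be technical. In RNA of a whole culture, fewer cells of a kind (such as cells copying DNA) and less RNA per cell cannot be told apart.

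Pyrimidines are built as a free base ring that is then joined to a sugar. CAD carries the first steps of the route, UMPS closes it at UMP, and CTPS1 makes CTP from UTP. Ribonucleotide reductase, made of the large subunit RRM1 and the small subunit RRM2, turns ribonucleotides into deoxynucleotides. DUT cleaves dUTP, which keeps uracil out of DNA and yields the substrate of thymidylate synthase, and DTYMK phosphorylates the dTMP that follows. TK1 and DCK salvage nucleosides from outside the route, thymidine by TK1 and deoxycytidine and purine deoxynucleosides by DCK. NME1 transfers the last phosphate in the making of nucleoside triphosphates. RRM2 and TK1 are known for levels that peak in S phase, the phase of DNA synthesis, and CAD is a textbook target of the transcription factor MYC.

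The arrays were alike except for 1. STK38 shRNA replicate 4 correlated with the other arrays of its group at a mean r of 0.982, where those 4 correlated with each other at 0.995 to 0.997 and the non-target arrays at 0.993 to 0.997 (Pearson, across probe sets, which are not independent). The spread of its values also differed over the whole array. Its 75th percentile was 3.54, against 3.91 to 4.02 on all other arrays, and its median was 2.25, against 2.12 to 2.17. For the 10 genes and other genes of their routes, each result below that rests on STK38 shRNA replicate 4 is given with and without it. STK38, MYC and the cell type markers are given with all arrays only. STK38 itself had log2 values of 2.46 to 2.95 on the STK38 shRNA arrays and 4.80 to 5.28 on the non-target arrays at its brightest probe set, the direction the labels give, on every array. The log2 difference was -2.19 there, -1.16 at 36217_at and -0.82 at 36218_g_at. With the STK38 shRNA the signal exceeded the array background on 4, 5 and 2 of 5 arrays in the same order, so the size of the fall is uncertain. At its brightest probe set MYC fell by 1.38 on the log2 scale (SE 0.15, limma adjusted p = 9.56e-06). Of 7 B cell markers with a probe set, 6 were above the array background on all 10 arrays and PAX5 was on none. Of the 6 tested at their brightest probe set, MME was lower in STK38 shRNA cells (-1.60, limma adjusted p = 6.02e-08) and CD79A higher (0.49, limma adjusted p = 0.000689). Markers of other cell types were mostly dim, with 4 of 5 monocyte, 4 of 5 T cell and 4 of 5 fibroblast or endothelial genes above background on no array. Their mean log2 levels were highest on STK38 shRNA replicate 4 in all 3 lists. For monocyte markers that level was 2.24 there, 1.80 to 1.95 on the other STK38 shRNA arrays and 1.73 to 1.96 on the non-target arrays. For T cell markers it was 2.90, 2.69 to 2.80 and 2.80 to 2.87 in the same order, and for fibroblast or endothelial markers 2.08, 1.83 to 1.99 and 1.84 to 1.88. The background itself was 2.65 on that array, 2.37 to 2.44 on the other STK38 shRNA arrays and 2.36 to 2.66 on the non-target arrays. The T cell level takes in TRBC1, which was above background on all 10 arrays at its brightest probe set. TRBC1 was lower in STK38 shRNA cells there, with means of 7.76 and 8.27 (log2 difference -0.52, limma adjusted p = 0.000676).

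Of the 10 genes, 5 were lower in STK38 shRNA cells and 0 were higher by limma with Benjamini-Hochberg adjustment over all probe sets tested at 0.05. The 5 were DUT, both probe sets of TK1, DCK, RRM2 and CTPS1, with log2 differences of -1.12 to -0.47. Over probe sets, 6 of 14 were lower, beside 15.8% of all 7535 probe sets tested, and 0 of 14 were higher, beside 14.1%. In either direction 29.9% of all were called. The 10 genes and the lists below were chosen with earlier results of these data known, which limits each comparison with these shares. At an unadjusted p under 0.05 RRM1 would be added. The median log2 difference over the 14 was -0.38, beside 0.018 over all tested. All 14 passed the filter on dim probe sets, and all 14 were above background on every array. The plot of values by array shows where the groups separate.

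**Figure D1:**
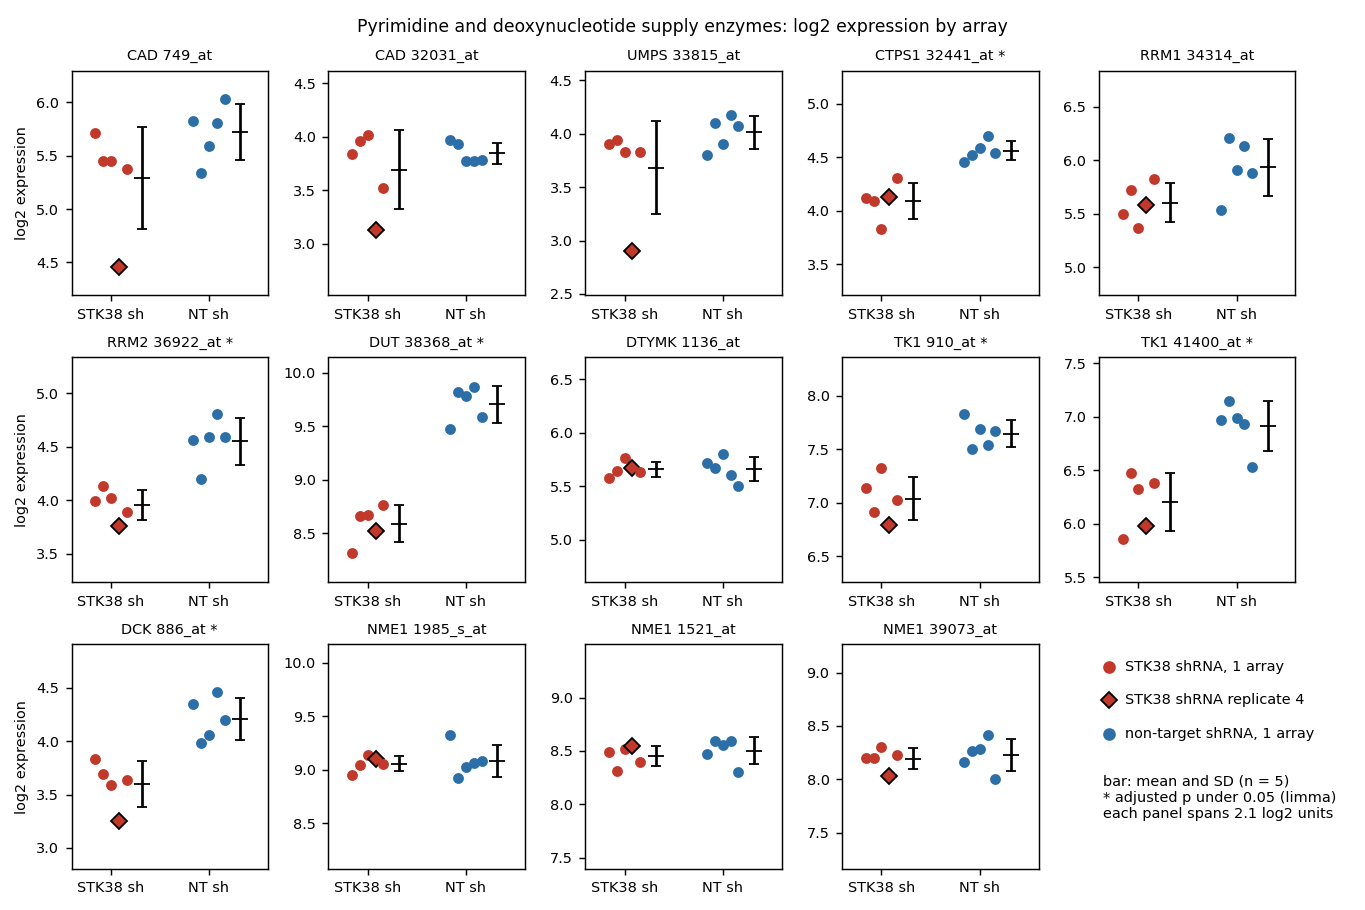
Log2 expression (vertical axis, each panel spanning the same number of log2 units) at the 14 probe sets on the STK38 shRNA arrays (red, left) and the non-target shRNA arrays (blue, right), with mean and SD beside the points (n = 5 each) and STK38 shRNA replicate 4 as a diamond. The groups do not overlap at the 6 probe sets marked with a star, and the diamond lies well below its group at CAD and UMPS. Of all probe sets tested, 12.8% had every STK38 shRNA array below every non-target array and 9.33% had every one above.

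Promoter sequence was read from RefSeq windows of GRCh38.p14 that run from 250 bases before to 50 after an annotated start site, and all 10 genes matched, with 16 windows in all since CTPS1, RRM2 and TK1 have 2 each and DUT has 4. They are shown because several of these genes moved together. Each was searched on both strands for CACGTG (the E-box that MYC and MAX bind), for TTTGGCGC or TTTCCCGC (E2F-type) and for CCAAT (the box of the factor NF-Y). The 130 bases before the start site are printed 5' to 3' on the strand of the gene, with matches in capitals (a match on the other strand appears as its reverse complement), for DUT (chr15:48332067-48332196, + strand, the last of its 4 windows), TK1 (chr17:78187053-78187182, - strand, the downstream one of its 2 windows), RRM2 (chr2:10122609-10122738, + strand, likewise), DCK (chr4:70993519-70993648, + strand) and, as a gene that did not pass the test, DTYMK (chr2:241686816-241686945, - strand).
DUT: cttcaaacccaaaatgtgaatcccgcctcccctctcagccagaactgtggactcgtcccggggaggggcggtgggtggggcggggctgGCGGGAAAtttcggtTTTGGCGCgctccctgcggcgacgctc
TK1: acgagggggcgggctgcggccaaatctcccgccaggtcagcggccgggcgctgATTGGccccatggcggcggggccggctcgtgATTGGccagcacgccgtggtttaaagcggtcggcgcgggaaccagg
RRM2: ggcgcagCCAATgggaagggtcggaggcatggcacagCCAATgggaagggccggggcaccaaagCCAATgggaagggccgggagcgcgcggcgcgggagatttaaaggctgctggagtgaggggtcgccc
DCK: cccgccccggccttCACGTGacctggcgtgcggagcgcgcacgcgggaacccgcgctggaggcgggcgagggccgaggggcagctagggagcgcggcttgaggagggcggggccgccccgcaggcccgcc
DTYMK: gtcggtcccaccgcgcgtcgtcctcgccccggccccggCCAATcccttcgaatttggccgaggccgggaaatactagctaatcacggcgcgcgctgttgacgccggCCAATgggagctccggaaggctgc

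In these letters DUT held 2 E2F-type matches, at -42 and -27 from the start site. TK1 held 2 CCAAT matches on the other strand, at -77 and -46, and RRM2 held 3, at -123, -93 and -66. DCK held a CACGTG at -116 and, past the start site, an E2F-type match at 22 on the other strand. Members that did not pass the test also held such letters: DTYMK had CCAAT at -92 and -24, RRM1 at -28, and CAD at -250 on the other strand. NME1 had CACGTG at 35 and CCAAT at -203. CTPS1 and UMPS had no match in their windows. Of the 16 windows, some of which overlap, 2 held CACGTG, 2 an E2F-type match and 7 CCAAT. Of all 35116 RefSeq windows of this length, 7.26% held CACGTG, 2.27% an E2F-type match and 34.6% CCAAT. A match describes the letters and is not shown to be a bound site. No motif was held by the 5 genes that were lower and by no other of the 10.

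**Figure D2:**
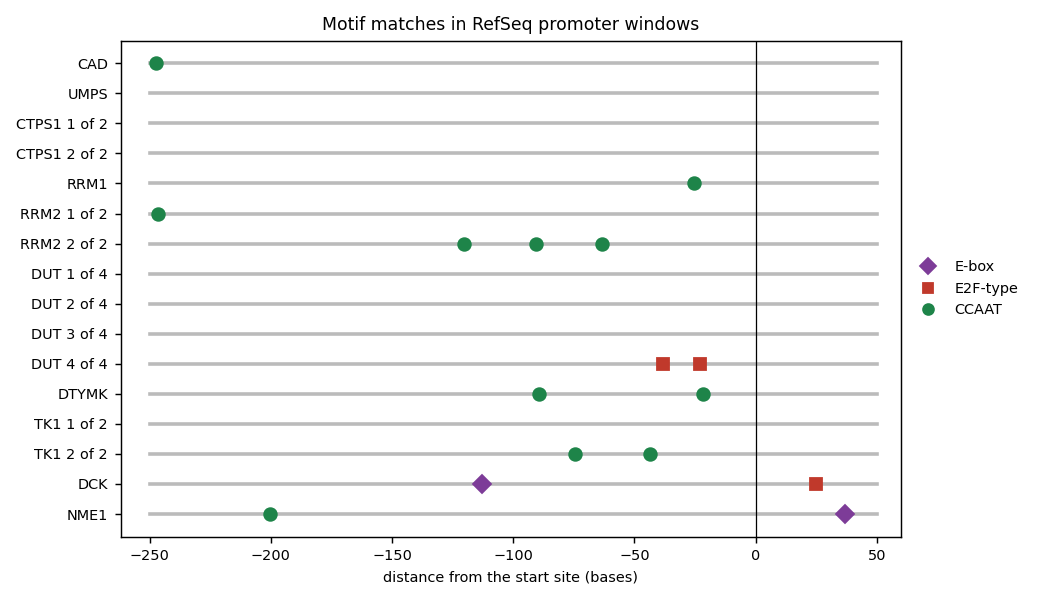
Matches to CACGTG (E-box), the E2F-type letters and CCAAT in the 16 RefSeq windows of the 10 genes, drawn by distance in bases from the start site (horizontal axis), one line for each window. The E2F-type matches lie in DUT window 4 and DCK, while CCAAT lies in genes that passed the test (RRM2, TK1) and in genes that did not (CAD, RRM1, DTYMK, NME1).

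Thymidylate supply held the largest difference. DUT (38368_at), which cleaves dUTP, had log2 values of 8.32, 8.66, 8.67, 8.52 and 8.77 on STK38 shRNA replicates 1 to 5, against 9.47, 9.83, 9.78, 9.87 and 9.58 on non-target replicates 1 to 5. Every STK38 shRNA array was below every non-target array, which also held at 12.8% of all probe sets tested. The means were 8.59 ± 0.17 in STK38 shRNA cells and 9.71 ± 0.17 in non-target cells (SD, n = 5 each), so DUT fell by 1.12 on the log2 scale (SE 0.094, limma adjusted p = 6.40e-07), 2.17-fold lower in STK38 shRNA cells. Ranked from the largest fall, DUT was number 174 of the 7535 probe sets. DTYMK (1136_at), the next kinase after thymidylate synthase, had 5.58, 5.64, 5.76, 5.67 and 5.64 with the STK38 shRNA, against 5.72, 5.67, 5.80, 5.61 and 5.51 with the non-target shRNA. Its groups overlapped throughout, and its log2 difference was -0.0045 with a 95% interval of -0.21 to 0.20 (limma adjusted p = 0.982). The sign of so small a value turned under quantile normalization (0.057) and centring on the 75th percentile (0.044).

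The change of DUT differed from that of DTYMK. The per-array difference between their log2 values ran from 2.74 to 3.13 with the STK38 shRNA and from 3.76 to 4.26 with the non-target shRNA, without overlap. The difference of the changes was -1.11 (two-sided exact permutation p = 0.00794, the smallest that 5 against 5 arrays allow, and 0.0317 adjusted over the 4 pairs of genes compared, 5 arrays of 5 lower).

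TK1 and DCK, the salvage kinases among the 10 genes, both fell. TK1, which phosphorylates thymidine, had 7.14, 6.91, 7.33, 6.79 and 7.03 at its brighter probe set (910_at) with the STK38 shRNA, against 7.83, 7.51, 7.69, 7.54 and 7.67 with the non-target shRNA. The groups did not overlap. TK1 was 7.04 ± 0.21 in STK38 shRNA cells and 7.65 ± 0.13 in non-target cells (SD, n = 5 each), a fall of 0.61 on the log2 scale (SE 0.10, limma adjusted p = 0.000453). Its second probe set (41400_at) had 5.86, 6.47, 6.32, 5.98 and 6.38 with the STK38 shRNA, against 6.98, 7.15, 6.99, 6.93 and 6.53 with the non-target shRNA. Non-target replicate 5 came closest to the STK38 shRNA arrays there, and the fall of 0.71 (SE 0.14, limma adjusted p = 0.00129) was in the same direction as at the brighter one. In fold terms TK1 was 1.52-fold and 1.64-fold lower in STK38 shRNA cells.

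DCK (886_at), the deoxycytidine kinase that also activates nucleoside drugs, had 3.83, 3.69, 3.59, 3.25 and 3.63 with the STK38 shRNA, against 4.35, 3.98, 4.05, 4.46 and 4.20 with the non-target shRNA. STK38 shRNA replicate 4 was the lowest array and replicate 1 the nearest to the non-target arrays, and the groups did not overlap. DCK fell by 0.61 on the log2 scale (SE 0.14, limma adjusted p = 0.00379) and by 0.52 without replicate 4 (limma adjusted p = 0.00231). The changes of TK1 and DCK were not told apart: the difference between them was 0.0024 (exact permutation p = 0.992, adjusted p = 0.992), and its sign turned with the choice of probe set and of arrays.

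Of the subunits of ribonucleotide reductase, RRM2 passed the test and RRM1 did not. RRM2 (36922_at), the small subunit that holds the radical of the enzyme, had 3.99, 4.14, 4.02, 3.76 and 3.89 with the STK38 shRNA, against 4.56, 4.20, 4.59, 4.81 and 4.59 with the non-target shRNA. Non-target replicate 2 lay just above the highest STK38 shRNA array. RRM2 fell by 0.59 on the log2 scale (SE 0.13, limma adjusted p = 0.00315), 1.51-fold lower in STK38 shRNA cells. RRM1 (34314_at), the large subunit with the catalytic site, had 5.50, 5.73, 5.37, 5.58 and 5.83 with the STK38 shRNA, against 5.53, 6.21, 5.91, 6.13 and 5.88 with the non-target shRNA. Non-target replicate 1 lay among the STK38 shRNA arrays. The log2 difference of RRM1 was -0.33 with a 95% interval of -0.62 to -0.041 (limma adjusted p = 0.0836). Without non-target replicate 1 RRM1 was called, at -0.43 (limma adjusted p = 0.0203), and array weights also brought it past the threshold, at -0.35 (limma adjusted p = 0.0290).

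That RRM2 passed and RRM1 did not is not evidence that they changed by different amounts. The log2 difference between RRM2 and RRM1 per array was -1.94 to -1.35 with the STK38 shRNA and -2.01 to -0.97 with the non-target shRNA, and these ranges overlapped. The difference of the changes was -0.26 (two-sided exact permutation p = 0.222, 0.444 adjusted over 4 pairs). Leaving out non-target replicate 2 gave -0.42, which passed the threshold (exact permutation, adjusted p = 0.0317).

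UMP and CTP synthesis gave 1 call. CTPS1 (32441_at), CTP synthase, had 4.11, 4.09, 3.82, 4.12 and 4.30 with the STK38 shRNA, against 4.46, 4.52, 4.59, 4.70 and 4.54 with the non-target shRNA. The groups did not overlap, and CTPS1 fell by 0.47 on the log2 scale (SE 0.12, limma adjusted p = 0.00697), 1.38-fold lower in STK38 shRNA cells. STK38 shRNA replicate 4 lay within the range of the other arrays of its group at this gene, and the value without it was -0.48.

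CAD, the multifunctional first enzyme, had 5.71, 5.45, 5.45, 4.46 and 5.38 at its brighter probe set (749_at) with the STK38 shRNA, against 5.82, 5.34, 5.59, 5.81 and 6.03 with the non-target shRNA. STK38 shRNA replicate 4 stood alone below all other arrays, and the remaining arrays of the groups overlapped. The log2 difference was -0.43 with a 95% interval of -0.86 to 0.0026 (limma adjusted p = 0.133), and -0.22 with an interval of -0.50 to 0.054 (limma adjusted p = 0.204) without replicate 4. The dimmer probe set (32031_at) had -0.15 with all arrays and -0.013 without replicate 4, neither past the threshold. UMPS (33815_at), the enzyme that closes the route, showed the same layout. It had 3.91, 3.94, 3.83, 2.91 and 3.83 with the STK38 shRNA, against 3.80, 4.10, 3.91, 4.18 and 4.07 with the non-target shRNA. Its log2 difference was -0.33 (limma adjusted p = 0.210) with all arrays and -0.13 (limma adjusted p = 0.373) without replicate 4. The changes of CAD and UMPS differed by -0.099 (exact permutation p = 0.524, 0.698 adjusted over 4 pairs).

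**Figure D3:**
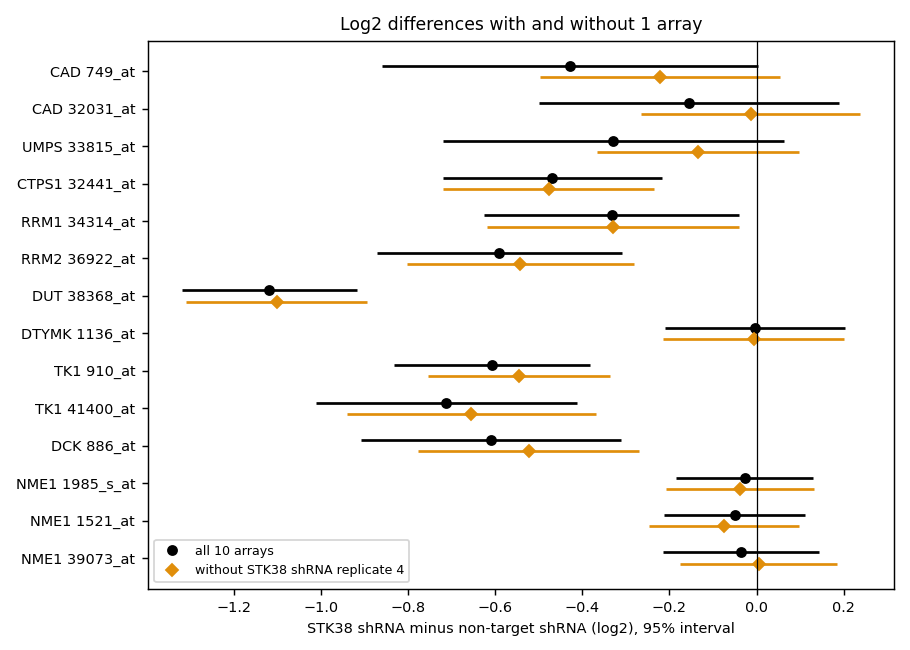
STK38 shRNA minus non-target shRNA on the log2 scale with its 95% interval (horizontal axis) for the 14 probe sets, with all 10 arrays (black circles) and without STK38 shRNA replicate 4 (orange diamonds). CAD and UMPS move towards 0 without that array (CAD 749_at was -0.43 with all arrays and -0.22 without it), while the intervals of DUT, TK1, DCK, RRM2 and CTPS1 stay below 0.

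STK38 shRNA replicate 4 was the lowest array of its group at 7 of the 14 probe sets, by 1.03 below the mean of the other 4 at CAD 749_at and by 0.97 at UMPS, and it lay within the range of the others at CTPS1, RRM1, DUT, DTYMK, NME1 1985_s_at and TK1 41400_at. At NME1 1521_at it was the highest. Without it, 6 of the 14 probe sets were lower and 0 higher, the same counts as with all arrays. Of all probe sets tested, 16.9% were then lower and 20.7% higher. The median log2 difference of the 14 was -0.27 without that array.

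NME1, a nucleoside diphosphate kinase, gave 3 probe sets of bright signal. At 1985_s_at it had 8.95, 9.04, 9.14, 9.10 and 9.05 with the STK38 shRNA, against 9.33, 8.92, 9.03, 9.07 and 9.08 with the non-target shRNA. The groups overlapped there and at the other NME1 probe sets. The log2 differences were -0.027, -0.051 (1521_at) and -0.036 (39073_at), with limma adjusted p-values of 0.839, 0.693 and 0.814. The 95% intervals together ran from -0.22 to 0.14. All 3 signs turned under quantile normalization, at 0.012, 0.0062 and 0.028. NME1 and its neighbour NME2 have closely similar coding sequence, so NME1 probes may also read NME2 transcripts. No probe set names NME2 alone in the annotation, and the planned comparison of NME1 with NME2 was not made.

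**Figure D4:**
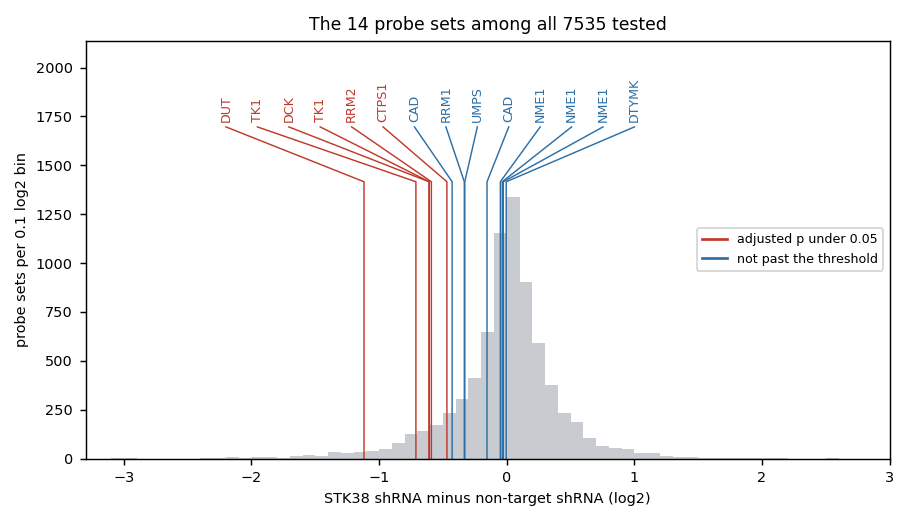
Number of probe sets (vertical axis) by STK38 shRNA minus non-target shRNA on the log2 scale (horizontal axis, bins of 0.1) for all 7535 probe sets tested, with the 14 probe sets of the 10 genes as lines, red where the adjusted p is under 0.05. All 14 lines lie at or below 0, from DUT at -1.12 to DTYMK at -0.0045, while the median of all probe sets is 0.018.

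Other genes of the same routes were read from a list of 41, of which 24 had a probe set that names them alone and 22 were tested, at 26 probe sets. Of these 22 genes, 5 were lower, 2 were higher and 15 did not pass the test. By probe set 6 of 26 (23.1%) were lower, beside 15.8% of all probe sets tested, and 2 were higher, beside 14.1%, and the median log2 difference was -0.021. Without STK38 shRNA replicate 4, 6 of 26 were lower, beside 16.9% of all, and 3 higher, beside 20.7%, the added call being SLC29A2. In thymidylate supply, TYMS, thymidylate synthase, which uses the dUMP that DUT makes, had 7.63, 7.69, 7.92, 7.68 and 7.79 with the STK38 shRNA, against 8.89, 8.48, 8.74, 8.77 and 8.70 with the non-target shRNA. The groups did not overlap, and TYMS fell by 0.97 on the log2 scale (limma adjusted p = 8.95e-07) there and by 0.70 (limma adjusted p = 0.000164) at its dimmer probe set. DCTD, which makes dUMP from dCMP, was higher at its brighter probe set, 8.03, 8.13, 8.12, 8.03 and 7.95 with the STK38 shRNA, against 7.41, 7.82, 7.71, 7.71 and 7.20 with the non-target shRNA. That log2 difference was 0.48 (limma adjusted p = 0.00357), and the other DCTD probe set had 0.20 (limma adjusted p = 0.234).

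In salvage and breakdown, 2 genes had larger fitted differences than DUT, a gap that was not tested. DGUOK, the mitochondrial deoxyguanosine kinase, had 4.68, 4.87, 4.99, 4.92 and 4.99 with the STK38 shRNA, against 6.31, 6.58, 6.37, 6.28 and 6.70 with the non-target shRNA. Its groups lay far apart, and DGUOK fell by 1.56 on the log2 scale (SE 0.11, limma adjusted p = 1.63e-07), 2.94-fold lower in STK38 shRNA cells. DPYD, the first enzyme of pyrimidine breakdown, had 2.61, 2.56, 2.64, 1.94 and 2.86 with the STK38 shRNA, against 4.73, 4.28, 4.79, 4.79 and 3.62 with the non-target shRNA. Its signal exceeded background on every non-target array but on 4 of 5 with the STK38 shRNA. DPYD fell by 1.92 on the log2 scale (SE 0.23, limma adjusted p = 1.56e-05), and by 1.77 without STK38 shRNA replicate 4 (limma adjusted p = 1.72e-06). The size of the fall is uncertain since the STK38 shRNA signal was close to background.

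The other calls were smaller. GLRX, glutaredoxin, which can return electrons to ribonucleotide reductase, was higher at 7.11 ± 0.19 in STK38 shRNA cells and 6.72 ± 0.11 in non-target cells (SD, n = 5 each), a log2 difference of 0.38 (limma adjusted p = 0.0112). TXN and TXNRD1 of the thioredoxin route had -0.036 and 0.086, not past the threshold. NUDT1, which removes oxidised purine nucleotides, fell by 0.36 (limma adjusted p = 0.0357), a call lost on leaving out STK38 shRNA replicate 1, 2 or 4 or non-target replicate 1, 4 or 5 (limma adjusted p up to 0.0913). SLC29A1, the nucleoside transporter ENT1, fell by 0.50 (limma adjusted p = 0.0446), and by 0.31 without STK38 shRNA replicate 4 (limma adjusted p = 0.0283). The call of SLC29A1 was lost on leaving out STK38 shRNA replicate 2 or 5 or non-target replicate 1, 3, 4 or 5, with limma adjusted p up to 0.102, and with the replicate number as a block (limma adjusted p = 0.0557). SLC29A2, the related transporter ENT2, had 2.43, 2.40, 2.16, 1.39 and 2.36 with the STK38 shRNA, against 1.97, 2.02, 2.11, 2.03 and 1.59 with the non-target shRNA. Replicate 4 was the lowest STK38 shRNA array there, and the signal exceeded background on 1 of the 10 arrays. Its log2 difference was 0.20 with all arrays (limma adjusted p = 0.437) and 0.39 without replicate 4, which passed the test (limma adjusted p = 0.00405). NUDT1 was no longer called without that array, at -0.28 (limma adjusted p = 0.0530). Without it 1 of the ADK probe sets (adenosine kinase) was also called lower, at -0.28 (limma adjusted p = 0.0311), against -0.25 with all arrays (limma adjusted p = 0.0771). The other ADK probe set had the opposite sign, at 0.075 without that array (limma adjusted p = 0.537) and 0.044 with all arrays (limma adjusted p = 0.783). DHODH, the mitochondrial enzyme between CAD and UMPS, had -0.027 with a 95% interval of -0.31 to 0.26 (limma adjusted p = 0.915).

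**Figure D5:**
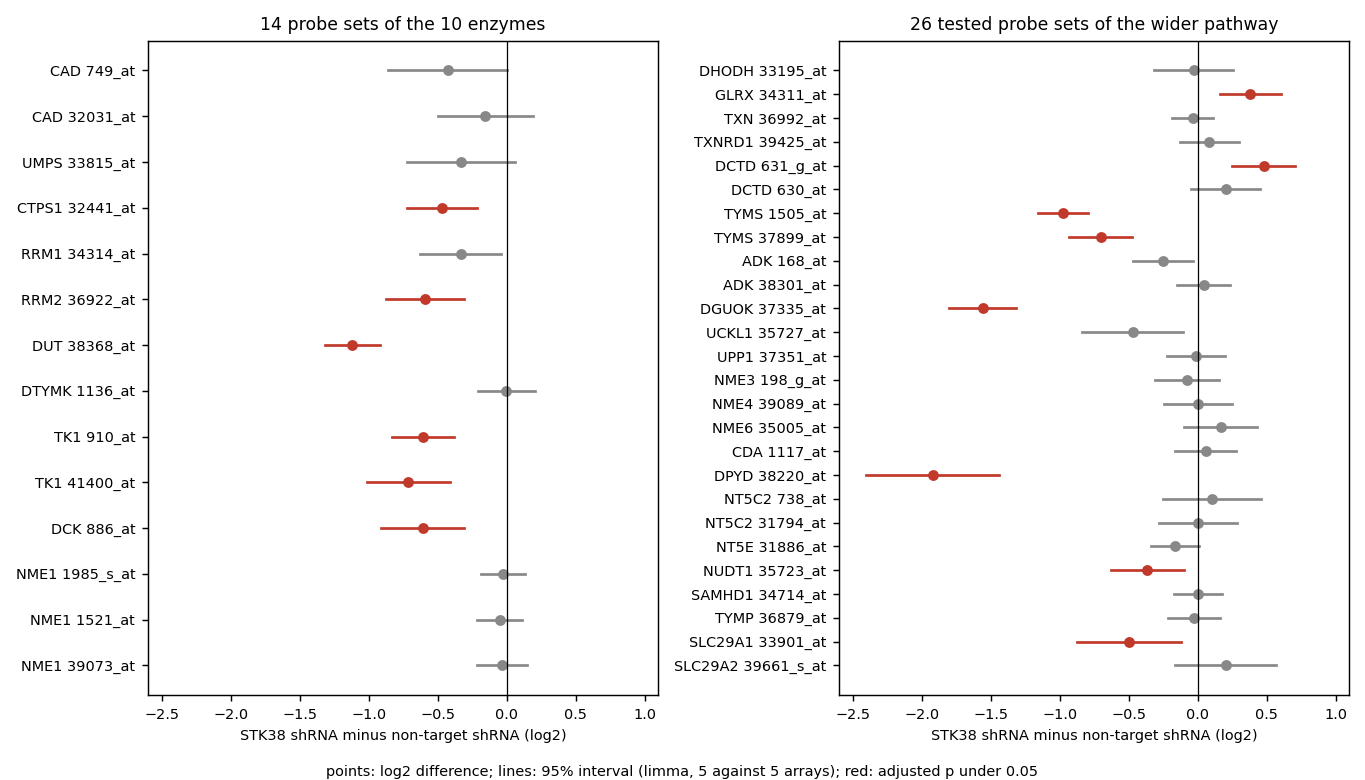
STK38 shRNA minus non-target shRNA on the log2 scale (horizontal axis) with 95% intervals for the 14 probe sets of the 10 enzymes (left) and the 26 tested probe sets of other genes of the routes (right), red where the adjusted p is under 0.05. On the left the calls all lie below 0; on the right DPYD (-1.92) and DGUOK (-1.56) lie lowest and DCTD (0.48) and GLRX (0.38) are the calls above 0.

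Genes of DNA synthesis outside nucleotide supply were mostly lower, while 5 of the 10 enzymes had no call. Of 21 genes of S phase and its onset, each read at its brightest probe set, 17 were lower and 0 higher, beside 15.8% lower and 14.1% higher of all probe sets tested, with a median log2 difference of -0.77. These 21 were listed with earlier results of these data known. CCNE1, cyclin E1, was lower at its dimmer probe set alone (-0.62, limma adjusted p = 0.000333) and is not among the 17. Without STK38 shRNA replicate 4, 18 of 21 were lower and 0 higher, beside 16.9% and 20.7% of all. Their mean log2 level was 4.70 on STK38 shRNA replicate 4 and 5.02 to 5.16 on the other STK38 shRNA arrays, against 5.79 to 5.95 on the non-target arrays. The part of this shift, or of the lower MYC mRNA, in the values of the 10 enzymes was not tested.

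The 5 genes whose log2 values followed DUT most closely over the 10 arrays were TCL1A (Pearson r = 0.987), IRAG2 (0.982), POLR3C (0.981), HNRNPA3 (0.980) and HADHA (0.978). All 5 were lower in STK38 shRNA cells, with log2 differences of -1.20 to -0.80. That direction largely follows from choosing genes by their correlation with DUT, whose values separate the groups. The points fall into the same separate groups for every gene, and the correlations are a description of these arrays. Each r takes in both the difference between the groups and the spread within them, and 5 arrays a group are too few for a correlation within a group.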

How the data were processed

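The deposited log2 expression values of 12625 probe sets on 10 arrays were used as the authors normalized them. Per the submitters' processing notes the tools were GCRMA and affy, whose versions are not given in the sources used here; that the scale is log2 was judged by the range of the values. GCRMA pulls dim probe sets towards a floor, which shrinks differences of weakly expressed genes. Arrays were grouped by the transduction label. A probe set took its name from the platform annotation where that gave 1 gene (10943 of 12558 that are not controls), with symbols updated through Entrez identifiers to RefSeq (GRCh38.p14).

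Probe sets with a mean under the 40th percentile (1.93) were left out, and the 7535 others were compared by limma 3.58.1 in R 4.3.3 through lmFit and eBayes (mean-variance trend, 2 groups without covariates, 8 residual degrees of freedom), two-sided, with Benjamini-Hochberg adjustment over all of them and a threshold of 0.05. Intervals are 95% from that fit. The number of arrays limits the precision. Pairs of genes were compared by exact permutation over arrays. Background was the 90th percentile of 23 control probe sets on each array (2.36 to 2.66); without the ACTB and GAPDH controls among them all 14 probe sets of the 10 genes were still above it on every array, while the counts above background on no array became 2 of 5 for monocyte and 2 of 5 for fibroblast or endothelial markers. The fit was also run on simulated data with independent noise of equal spread on every array. That setting holds no array like STK38 shRNA replicate 4, so it does not show how the fit behaves on these arrays. The brightest probe set of a gene was the one with the highest mean. Named genes were the 10 members, called genes of the wider list, STK38, MYC, and the 5 genes closest to the member with the largest called change; uncalled genes of the wider list and markers were chosen after their values were seen. The members and lists were chosen with earlier results of these data known. Plots were drawn with matplotlib 3.10.9.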

Additional observations from a re-analysis of the deposited data

Results flagged for a closer look

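STK38 shRNA replicate 4 lay far below the other arrays of its group at 4 probe sets. It had a log2 value of 4.46 at CAD 749_at, where the other STK38 shRNA arrays had 5.38 to 5.71, and 2.91 at UMPS, where they had 3.83 to 3.94. It had 4.24 at SLC29A1, where they had 5.10 to 5.28, and 2.46 at STK38 370_at, where they had 2.88 to 2.95. At each of these the gap to the nearest array, divided by the range of the group, exceeded Dixon's 95% critical value for 5 arrays, 0.71. In all, 48 groups of 5 arrays at 24 probe sets were examined, chance flags about 1 in 20, and all 4 flags fell on this array.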

How the results depend on the processing

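Over 21 alternatives of scaling, filter, variance model, array weights, replicate block, threshold, probe set choice and single arrays left out, the count of lower probe sets among the 14 was 5 to 7 and the count of higher ones 0. The count of 5 came from 1 probe set per gene. The count of 7 came with array weights and without non-target replicate 1. Over all probe sets tested, 1938 to 2970 were called in either direction in the 19 refits, against 2256 of 7535 in the main fit. Array weights gave the 2970, and leaving out non-target replicate 1 gave 1989. The number tested was 12558 without the filter and 5023 with the filter at the 60th percentile. DUT, TK1, DCK, RRM2 and CTPS1 kept their direction and call in each of the 19 refits. In the wider list 4 to 7 probe sets were lower and 1 to 3 higher, with 1 higher at a threshold of 0.01. With the replicate number as a block, 6 of the 14 were lower and 5 of the wider list, where SLC29A1 was lost, and no other call among the 14 and the called genes of the wider list changed; deviations of same-numbered arrays correlated at -0.21 to 0.19 and 1 of 5 correlated best with its own number, so the numbers were not taken as pairs. With each gene's probe sets averaged, the difference of changes was -0.050 for TK1 minus DCK and 0.037 for CAD minus UMPS. With single arrays left out it ran from -0.087 to 0.057 for TK1 minus DCK, from -0.22 to -0.021 for CAD minus UMPS, from -0.42 to -0.15 for RRM2 minus RRM1 and from -1.19 to -1.06 for DUT minus DTYMK. Signs of values near 0 turned: DTYMK gave 0.057 under quantile normalization and 0.044 centred on the 75th percentile, NME1 1985_s_at 0.012 and 0.021, NME1 39073_at 0.028 and 0.013, and NME1 1521_at 0.0062 under quantile normalization. With single arrays left out these ran from -0.043 to 0.031 for DTYMK, -0.069 to 0.033 for 1985_s_at and -0.091 to 0.012 for 39073_at. NUDT1 was not called without the filter (limma adjusted p = 0.0631) or centred on the 75th percentile (0.0503), nor SLC29A1 without the filter (0.0707) or centred on the median (0.0632). The cause was not tested.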
